A study of Homo sapiens with 4 samples.

Results

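The miRNAs described here are the miR-191, miR-423 and miR-425 entries of the deposited table, which are often used as reference miRNAs to which others are scaled. Their names, not their values, pick them out of the table, but they were proposed with earlier results of these data known. Of the 1096 entries listed, 3 matched: miR-191-5p, miR-423-3p and miR-425-5p. The opposite arm of each hairpin was not analysed here, so the use of one arm over the other could not be measured.

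The study counted small RNA in PC-3, an established line of human prostate cancer cells that lacks the androgen receptor and came from a bone metastasis. One group was given apelin, a peptide hormone and ligand of the APJ receptor, at 10 µg/mL in its medium over 24 h, and the other group had no treatment. Both were kept in DMEM with fetal bovine serum, and each had 2 libraries. No label states whether those 2 libraries came from separate cultures, so every p-value below rests on the spread of 4 libraries that may differ only technically.

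A miRNA is cut from a hairpin in a longer transcript, and 1 strand of the resulting duplex is loaded into an Argonaute protein, where bases 2 to 8 (the seed) pair with target mRNAs. A reference miRNA is useful where its level does not move with the treatment or between preparations. miR-191-5p has been reported to repress the chromatin organiser SATB1, and miR-423-3p the cell cycle inhibitor CDKN1A.

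The mature sequences of 2 of the 3 members were found in RefSeq (GRCh38.p14). They are shown, 5′ to 3′ with the seed in capitals, because a mature sequence shared with another miRNA would make reads hard to assign.
miR-191-5p: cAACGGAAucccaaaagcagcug
miR-423-3p: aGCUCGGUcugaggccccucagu

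No other human mature miRNA in RefSeq had either seed (0 of 2369 other names for each). A seed bears on targets, not on the assignment of reads. Among the 451 other listed miRNAs with a RefSeq sequence, the closest to miR-191-5p was miR-3140-5p, 9 edits away, and the closest to miR-423-3p was miR-2277-5p, 7 edits away. Both members are 23 nt long, the length the authors listed for them, and their GC contents are 52.2% and 65.2%. The authors listed miR-425-5p at 25 nt, which could not be checked without a RefSeq sequence. The hairpins below show, in capitals, the arm that was counted.
MIR191: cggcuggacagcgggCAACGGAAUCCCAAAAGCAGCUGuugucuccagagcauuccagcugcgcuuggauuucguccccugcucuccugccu
MIR423: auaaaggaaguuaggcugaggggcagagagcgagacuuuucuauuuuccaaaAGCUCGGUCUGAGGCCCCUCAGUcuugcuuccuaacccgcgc

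MIR191 lies on the minus strand of chromosome 3 from 49020618 to 49020709, and MIR425 on the same strand from 49020148 to 49020234 (GENCODE release 29, GRCh38). The 2 hairpins are 383 bases apart, and both lie in introns of the protein-coding gene DALRD3 on its own strand. MIR423 lies on the plus strand of chromosome 17 from 30117079 to 30117172 and overlaps an annotated exon of NSRP1, a splicing regulator gene on that strand. MIR3184 lies opposite MIR423, from 30117086 to 30117160 on the minus strand. The sources used here do not say whether the authors' counting used strand, and miR-3184 was not analysed here.

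The libraries held 5322429 to 5701358 counts with apelin and 5662879 to 6014838 in controls. Levels are given as the deposited TPM, which here is CPM, a count scaled to a library total of 1000000, without regard to miRNA length. Intervals on single levels are Wilson 95% intervals, and they cover counting error only. The listed epithelial markers (7 of 8, from a list fixed for this report) summed to 13447 to 13882 TPM with apelin and 13698 to 14010 TPM in controls. Most of this came from miR-200b-3p (6467 to 6915 TPM over the 4 libraries) and miR-183-5p (5581 to 5654 TPM). miR-200a-3p had 903 to 1216 TPM and miR-429 336.5 to 468 TPM. miR-205-5p had 72.3 to 97.65 TPM, miR-200c-3p 23.0 to 33.25 TPM and miR-203a-3p at most 2.49 TPM. miR-141-3p was not listed. Leukocyte markers (2 of 4 listed) summed to at most 4.66 TPM in any library. The listed markers of red cells (1 of 3), endothelium (1 of 2), muscle (2 of 3) and liver (1 of 1) summed to at most 37.1, 13.7, 2.63 and 4.82 TPM, and the neuronal miR-9-5p (1 of 2 listed) to 300.05 and 399 TPM with apelin and 298 and 299 TPM in controls.

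miR-191-5p was the most abundant of the 3 and ranked 20 among catalogue miRNAs by mean TPM. It had 17069 TPM in apelin 1 (interval 16960 to 17180) and 14553 TPM in apelin 2 (14455 to 14651), against 16843 TPM in control 1 (16741 to 16946) and 17863 TPM in control 2 (17754 to 17972). Apelin 2 was the low library and apelin 1 lay between the controls, so the groups overlapped. Means were 15811 ± 1779 TPM with apelin and 17353 ± 721 TPM in controls (SD, n = 2 each).

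miR-425-5p, from the neighbouring hairpin, ranked 25. It had 9453 TPM in apelin 1 and 8716 TPM in apelin 2, against 8593 TPM in control 1 and 8802 TPM in control 2. Apelin 1 was the highest and apelin 2 lay between the controls. Means were 9084 ± 522 TPM with apelin and 8698 ± 148 TPM in controls (SD, n = 2 each).

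miR-423-3p was the least abundant and ranked 47. It had 3832 TPM in apelin 1 and 2912 TPM in apelin 2, against 3748 TPM in control 1 and 2987 TPM in control 2. The libraries numbered 1 were high and those numbered 2 were low in both groups, while the group means were almost equal. They were 3372 ± 651 TPM with apelin and 3368 ± 538 TPM in controls (SD, n = 2 each).

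**Figure D1:**
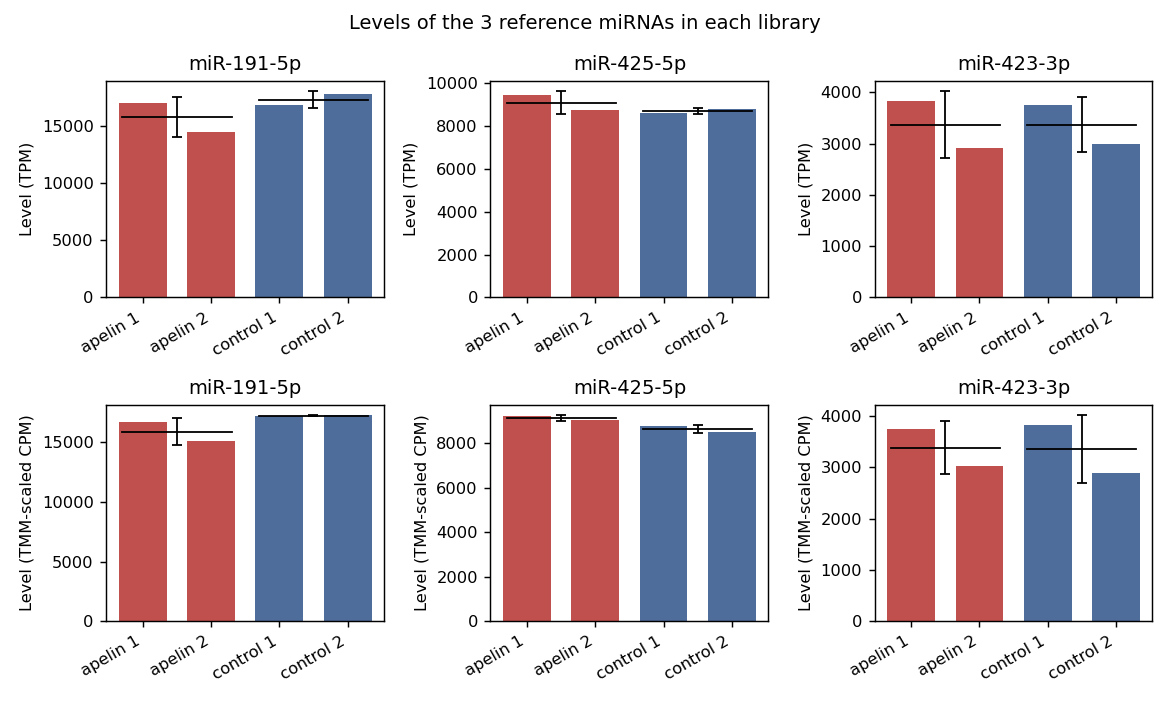
Levels of miR-191-5p, miR-425-5p and miR-423-3p in each library, as deposited TPM (upper row) and as TMM-scaled CPM (lower row); black lines and bars are group means and SD (n = 2). The miR-423-3p bars are high in apelin 1 and control 1 (3832 and 3748 TPM) and low in apelin 2 and control 2 (2912 and 2987 TPM).

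None of the 3 miRNAs passed edgeR's quasi-likelihood test between apelin and control cells, with Benjamini-Hochberg adjustment over all 263 tested entries and a threshold of 0.05. This test called 0% of those entries (0 of 263, with 15 at an unadjusted p under 0.05), so 0 of 3 members is the share of the table as a whole. DESeq2 called 53 of the 263 entries (20.2%) and also 0 of the 3 members. Of those 53, 30 were at 0 in some library, as no member was. Among the members miR-425-5p came nearest (DESeq2 adjusted p = 0.118). In what follows a fold change is apelin over control after TMM scaling, which removes a common shift between libraries.

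For miR-191-5p the log2 fold change was -0.12 with an SE of 0.077 (adjusted p = 0.637 in edgeR), and it was -0.21 without apelin 1. Its 95% interval ran from a fold of 0.776 to 1.10. For miR-425-5p the value was 0.082 with an SE of 0.060 (adjusted p = 0.663 in edgeR), and it was 0.040 without apelin 2. Its interval ran from a fold of 0.924 to 1.21. These intervals hold for TMM scaling, for the set of entries tested and for libraries that may differ only technically. They do not bound a change between cultures. Scaled on miR-425-5p, the log2 fold change of miR-191-5p was -0.20. Scaled on miR-191-5p, that of miR-425-5p was 0.20.

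The interval was much wider for miR-423-3p in this fit. Its log2 fold change of 0.012, with an SE of 0.22 (adjusted p = 0.976 in edgeR), was the median of the 207 tested catalogue miRNAs that were above 0 in all libraries. Its interval ran from a fold of 0.611 to 1.66, although the group means were almost equal. Without a library the log2 fold change ran from -0.19 (without control 2) to 0.19 (without control 1). It was -0.16 without apelin 1 and 0.10 without apelin 2. The gap in SE between the members depended on the entries tested. With no filter the SEs of miR-191-5p, miR-425-5p and miR-423-3p were 0.20, 0.21 and 0.24. On catalogue names above 0 in all libraries they were 0.12, 0.12 and 0.18.

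Whether the groups overlapped depended on the scaling for 2 of the 3 members. In TPM 0 of 3 members had apelin libraries that were both above or both below the controls, against 40.1% of the 207 catalogue miRNAs. After TMM scaling 2 of 3 did, against 39.6%. miR-191-5p then stood at 16679 and 15103 CPM in apelin 1 and 2, against 17189 and 17260 CPM in controls 1 and 2, so both apelin libraries were lower. miR-425-5p stood at 9237 and 9045 CPM in apelin 1 and 2, against 8770 and 8505 CPM in controls 1 and 2, so both apelin libraries were higher. These shares are over few members and are not read as a difference from the other miRNAs.

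**Figure D2:**
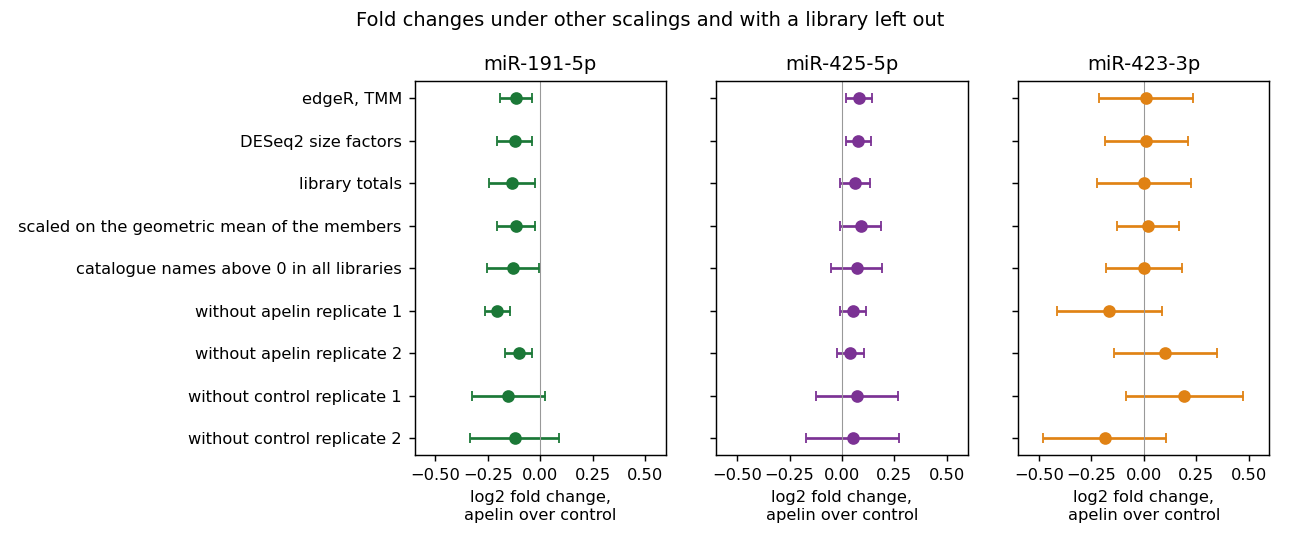
Log2 fold change of each miRNA, apelin over control, from edgeR under other scalings, on catalogue miRNAs alone and with a library left out; bars are 1 SE. miR-191-5p stays below 0 and miR-425-5p above 0 in all 9 settings drawn, while miR-423-3p lies between -0.19 and 0.19.

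The spread over all 4 libraries differed among the members. As the SD of the log2 TMM-scaled level it was 0.052 for miR-425-5p, 0.090 for miR-191-5p and 0.21 for miR-423-3p. Of the 206 other catalogue miRNAs above 0 in all libraries, 6 had a smaller SD than miR-425-5p, 19 a smaller one than miR-191-5p and 102 a smaller one than miR-423-3p. The median over the 204 outside the trio was 0.21, so miR-423-3p lay in the middle of the table.

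Counting error was small beside these SDs. The counting error of a single library was at most 0.0050, 0.0065 and 0.011 log2 units for miR-191-5p, miR-425-5p and miR-423-3p, so the observed SDs were 19.0, 8.10 and 19.9 times the mean counting error. Among miRNAs within 2-fold of the same level, 3 of 21 were steadier than miR-425-5p, 2 of 16 were steadier than miR-191-5p and 17 of 24 were steadier than miR-423-3p. These counts moved with single libraries: they were 0 of 21 for miR-425-5p without control 1 and 0 of 20 without control 2 or apelin 2, 7 of 17 for miR-191-5p without apelin 1 and 0 of 16 without apelin 2, and 10 of 24 for miR-423-3p without control 1. Entries with equal or near-equal values were each counted, so the sets hold fewer distinct miRNAs. Those near miR-191-5p include miR-24-1-3p, miR-24-2-3p and miR-24-3p (SD 0.22 each) and miR-103a-1-3p and miR-103a-2-3p (0.13 each). They also include miR-92a-1-3p (0.21), miR-92a-2-3p and miR-92a-3p (0.20 each). All of these were less steady than miR-191-5p. Such entries also stand among the 207 miRNAs, their pairs and the ranks by level. In deposited TPM, with no further scaling, the coefficients of variation were 4.32% for miR-425-5p, 8.57% for miR-191-5p and 14.5% for miR-423-3p. The place of miR-191-5p depended on apelin 1, as 24.0% of the miRNAs were steadier than it without that library, against 9.22% with all 4. For miR-425-5p the share was 2.91% with all 4, 0.485% without apelin 2, 1.46% without control 1 and 1.94% without control 2, and its SD was 0.024 to 0.045 with a library left out.

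**Figure D3:**
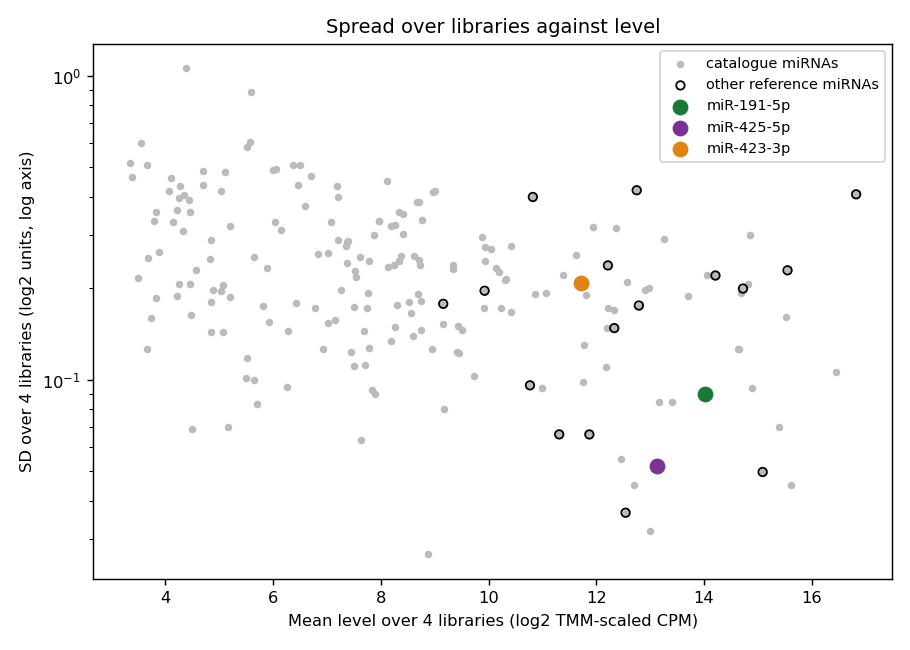
SD over the 4 libraries (log2 units, log axis) against mean level (log2 TMM-scaled CPM) for 207 catalogue miRNAs above 0 in all libraries, with the 3 members in colour and 16 other reference miRNAs as open circles. miR-425-5p (0.052) and miR-191-5p (0.090) lie low in the cloud and miR-423-3p (0.21) in its middle.

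For miR-423-3p the libraries of a group parted while the group means did not. Apelin 1 exceeded apelin 2 by 0.31 log2 units, and control 1 exceeded control 2 by 0.41. For miR-191-5p the difference was 0.14 between the apelin libraries and -0.0059 between the controls. For miR-425-5p it was 0.030 between the apelin libraries and 0.044 between the controls. Of the 207 miRNAs, 173 differed by less than miR-423-3p between the controls and 111 between the apelin libraries. In both groups 76 of the 207 were higher in the libraries numbered 1, as miR-423-3p was, and 55 were lower in them. The labels do not say that a number marks a shared day or culture.

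Base composition moved with these differences. Over the 178 of 207 miRNAs with a RefSeq mature sequence (86.0%), the apelin 1 minus apelin 2 difference was larger at higher GC content (Pearson r = 0.60, Spearman rho = 0.68 across miRNAs, which share the same libraries and are not replicates). The control 1 minus control 2 difference followed it weakly (r = 0.19, rho = 0.27). Of the 37 miRNAs with at least 60% GC, 34 were higher in apelin 1 than in apelin 2 (median difference 0.37 log2 units) and 28 were higher in control 1 than in control 2 (median 0.18). Of the 35 under 40% GC, 6 were higher in apelin 1 than in apelin 2 (median -0.42) and 19 in control 1 than in control 2 (median 0.027). Over all 207 miRNAs, 102 were higher in apelin 1 than in apelin 2 (median -0.0087) and 126 in control 1 than in control 2 (median 0.069). miR-423-3p, at 65.2% GC, stood at 0.31 and 0.41 for these differences, and miR-191-5p, at 52.2%, at 0.14 and -0.0059. The part of base composition in the spread of the members was not tested.

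**Figure D4:**
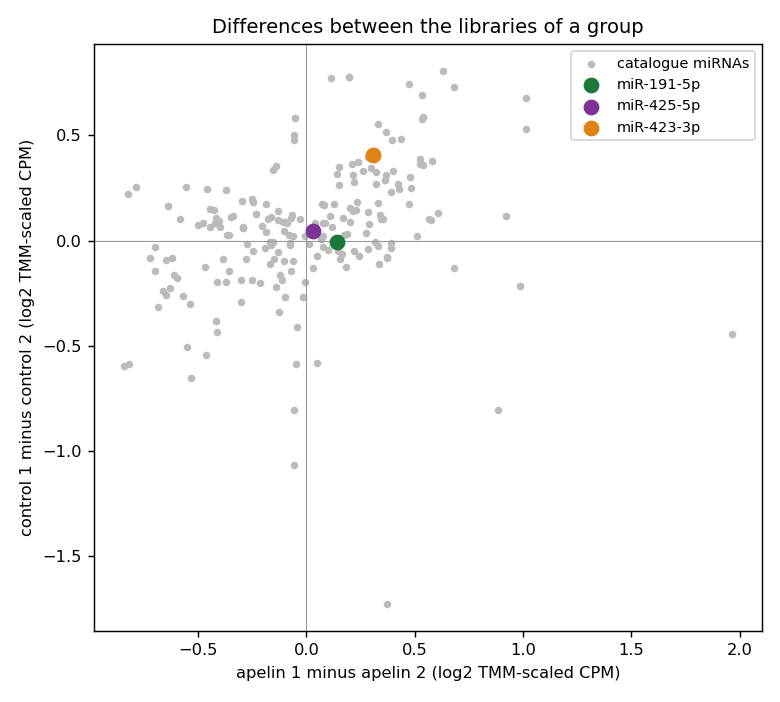
Difference between the 2 apelin libraries (x axis) and between the 2 control libraries (y axis), in log2 TMM-scaled CPM, for 207 catalogue miRNAs, with the 3 members in colour. miR-423-3p lies up and right of the origin (0.31 and 0.41), miR-425-5p near the origin (0.030 and 0.044) and miR-191-5p to its right (0.14 and -0.0059).

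Ratios between members need no scaling, since both counts come from 1 library. For the 2 miRNAs of the DALRD3 locus, miR-191-5p was counted 1.81 times as often as miR-425-5p in apelin 1 and 1.67 times in apelin 2, against 1.96 times in control 1 and 2.03 times in control 2. Both apelin ratios were below both control ratios. The difference was -0.20 on the log2 scale, from 0.80 ± 0.080 with apelin and 1.00 ± 0.035 in controls (SD, n = 2 each; exact permutation test, two-sided, p = 0.33, the smallest that 2 against 2 libraries allow, and 0.667 adjusted over 3 pairs). Non-overlap of this kind was common, at 43.2% of the 21321 pairs of catalogue miRNAs, and the median absolute difference over these pairs was 0.29, so this difference is no larger than is usual between 2 miRNAs here.

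The ratio of miR-423-3p to miR-191-5p was 0.224 in apelin 1 and 0.200 in apelin 2, against 0.223 in control 1 and 0.167 in control 2. Control 2 was the low library, and the groups overlapped (log2 difference 0.14, exact permutation p = 0.667). It was -0.070 without control 2. The ratio of miR-423-3p to miR-425-5p was 0.405 in apelin 1 and 0.334 in apelin 2, against 0.436 in control 1 and 0.339 in control 2. Here too the libraries numbered 1 were high (log2 difference -0.064, exact permutation p = 0.667), and the difference was 0.12 without control 1 and 0.075 without apelin 2. Over the 4 libraries the SD of the log2 ratio was 0.13 for miR-191-5p to miR-425-5p, 0.20 for miR-423-3p to miR-191-5p and 0.19 for miR-423-3p to miR-425-5p, and the median over all pairs was 0.31. Of all pairs, 8.37%, 22.8% and 21.0% had a smaller SD than these 3.

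**Figure D5:**
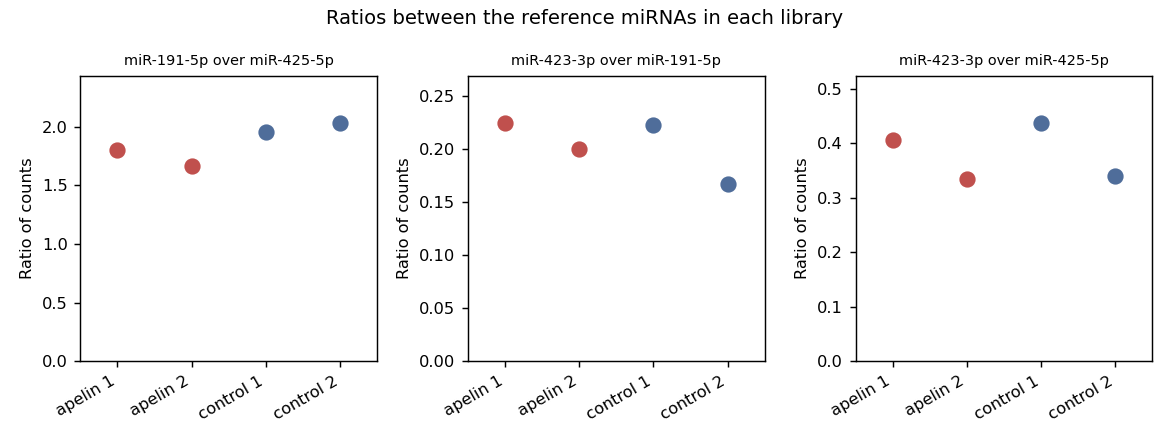
Ratio of the counts of each pair of members in each library (linear axes from 0). The ratio of miR-191-5p to miR-425-5p is 1.81 and 1.67 with apelin and 1.96 and 2.03 in controls, and the other pairs overlap between the groups.

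The choice of reference shifted the other fold changes. It multiplies all counts of a library by the same factor, so differences of mean log2 levels shift equally. The edgeR fold changes come from a fit to counts, and their shifts were not quite equal. From TMM scaling to scaling on miR-423-3p, miR-191-5p went from -0.12 to -0.15 and miR-425-5p from 0.082 to 0.060 (log2). After TMM scaling the median log2 fold change of the 207 catalogue miRNAs was 0.012. It was 0.13 when libraries were scaled on miR-191-5p alone, -0.070 on miR-425-5p alone, -0.00014 on miR-423-3p alone and 0.024 on the geometric mean of the 3. The split of the 207 into positive and negative fold changes moved with that median. It was 144 and 63 scaled on miR-191-5p and 77 and 129 scaled on miR-425-5p, against 107 and 100 after TMM scaling. The fold change of the reference itself is fixed at no change. By rounding, miR-191-5p was counted among its 144 positives, and miR-425-5p was in neither of its counts.

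The library factors behind these shifts differed most for miR-423-3p. Relative to the library totals, scaling on miR-423-3p gave factors of 1.15 in apelin 1 and 0.871 in apelin 2, against 1.12 in control 1 and 0.893 in control 2. For miR-191-5p, whose scaling moved the median most, they were 1.03 and 0.880 in apelin 1 and 2, against 1.02 and 1.08 in controls 1 and 2. Scaling on miR-425-5p gave 1.06 and 0.981 in apelin 1 and 2, against 0.967 and 0.991 in controls 1 and 2. TMM gave 1.02 and 0.964 in apelin 1 and 2, against 0.980 and 1.03 in controls 1 and 2. Scaling on miR-423-3p thus left the median log2 fold change at -0.00014, while its factors differed between the libraries of each group. The spread of the other miRNAs under this scaling was not measured.

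The trio was set beside 20 other miRNAs in common use as references, of which 16 were listed and tested under the name used. The name miR-103a-3p was not listed, and the listed miR-103a-1-3p and miR-103a-2-3p (SD 0.13 each) were not put in its place. edgeR called 0 of these 16, with 7 log2 fold changes above 0 and 9 below, and a median of -0.038. In TPM the groups did not overlap for 9 of the 16 (56.25%), against 40.1% of the 207 catalogue miRNAs. That share is over few miRNAs and is not read as a difference. The median SD of the 16 was 0.19, against 0.21 over the 207 catalogue miRNAs. Ordered by SD among the resulting 19, miR-425-5p took place 3, miR-191-5p place 6 and miR-423-3p place 13. miR-30c-5p (SD 0.036) and miR-23a-3p (0.050) came before miR-425-5p, and miR-25-3p and miR-186-5p (both 0.066) lay between it and miR-191-5p.

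miR-16-5p, widely used as a reference in serum, had an SD of 0.24 and stood at 4601 and 5774 TPM in apelin 1 and 2, against 3983 and 4826 TPM in controls 1 and 2. The widest of the 19 was miR-320a-3p (0.42), with 7409 and 4824 TPM in apelin 1 and 2, against 9806 and 6418 TPM in controls 1 and 2. By the mean SD of the log2 ratios to the other 18, a measure that needs no scaling, miR-425-5p again took place 3 (0.20), miR-191-5p place 6 (0.21) and miR-423-3p place 12 (0.27). Over all 207 miRNAs the steadiest was miR-505-3p (SD 0.027) and the least steady miR-628-5p (1.06).

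The miRNAs whose levels ran closest to each member were named by the SD over 4 libraries of the log2 ratio of counts, the 3 smallest of 204 catalogue miRNAs. For miR-191-5p the 3 closest were miR-181a-5p (0.020), miR-629-5p (0.038) and miR-324-3p (0.042). For miR-425-5p they were miR-222-3p (0.016), miR-99a-5p (0.050) and miR-186-5p (0.051). For miR-423-3p they were miR-362-5p (0.037), miR-874-3p (0.056) and miR-1247-5p (0.069). The GC content of these last 3 is 45.8%, 77.3% and 72.7% in the same order. A small SD to a member was the ground for naming these miRNAs, and with 4 libraries it is a description of these libraries.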

How the data were processed

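Small RNA was sequenced from PC-3 cells in 2 apelin and 2 control libraries. Trimmomatic 0.30 and DESeq2 are the tools named, per the submitters' processing notes. The sources used here name no aligner, miRNA catalogue or genome build. The deposited table holds raw read counts, and TPM values that the authors made as CPM, counts scaled to a library total of 1000000, equal to that value within 0.151 TPM.

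Entries with a mean of at least 10 TPM (53.2 to 60.1 counts) were tested, 263 in all, with the quasi-likelihood test of edgeR on counts, TMM scaling and Benjamini-Hochberg adjustment over all 263. Each SE is the absolute log2 fold change divided by the root of the test's F. Ratios were compared with an exact permutation test. SDs were taken over log2 TMM-scaled CPM. The test was tested on simulated data. Alternatives were other scalings, filters, tools and pseudocounts, a replicate block, and each library left out. Members, the reference panel and markers were chosen with earlier results of these data known. The text names all members, the extremes of the panel and of the table, miRNAs next to the members in order, and the 3 miRNAs closest to each member; miR-16-5p was singled out after its values were seen. Planned tests of arm shares and of miR-423-5p were not run. The libraries of a group differed far beyond counting error (chi-square per degree of freedom 431 for apelin, 574 for control). Entries that differ widely between libraries can raise this value, such as miR-1260a at 2750 ± 3889 TPM in controls (mean ± SD). Their part in it was not measured. This excess does not show that the libraries came from separate cultures. Each library was counted once. Software was edgeR 4.0.16, DESeq2 1.42.0 and limma 3.58.1 in R 4.3.3, and scipy 1.17.1, numpy 2.4.6, pandas 2.3.3 and matplotlib 3.10.9 in Python 3.11.15.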

Additional observations from a re-analysis of the deposited data

How the results depend on the processing

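The log2 fold change of miR-191-5p stayed negative (-0.21 to -0.092) and that of miR-425-5p positive (0.040 to 0.20) in all 19 alternatives, with adjusted p from 0.360 to 0.974 and from 0.118 to 0.978. miR-423-3p turned to -0.069 scaled on miR-425-5p alone and to -0.0024 with limma at each of 3 pseudocounts, and ran from -0.19 to 0.19 with a library left out (adjusted p from 0.729 to 1.00 over its 19). Leaving out a library moved the ratio differences to -0.26 to -0.14 for miR-191-5p to miR-425-5p, -0.070 to 0.34 for miR-423-3p to miR-191-5p and -0.25 to 0.12 for miR-423-3p to miR-425-5p.

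The 0 called entries became 4 scaled on the geometric mean of the members, 4 on miR-191-5p, 3 on miR-423-3p, 4 with limma on log2(TPM + 1), 5 and 4 with 0.1 and 10 as pseudocount, 4 at a minimum of 100 TPM, 52 with no filter, 53 with DESeq2 and 0 to 19 with a library left out. No member was called in any of them. With a replicate block edgeR called 0 of 263 entries, and 30 of the 207 catalogue miRNAs, again no member; the numbers are not stated to pair libraries, and deviations of libraries with the same number had a correlation of 0.31 across miRNAs. Under the block the log2 fold change of miR-423-3p was 0.018 with an SE of 0.086. In that fit of 263 entries the SEs of miR-191-5p and miR-425-5p were 0.080 and 0.069.

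The share of catalogue miRNAs steadier than miR-191-5p, 9.22%, was 16.5% on library totals, 12.1% to 24.0% with a library left out and 6.80% to 24.0% over all 10 alternatives. For miR-425-5p it was 2.91%, and became 5.34% on library totals, 1.94% with DESeq2 size factors, 0.971% at a minimum of 1 TPM or on catalogue names alone, 7.14% at 100 TPM and 0.485% to 2.45% with a library left out. For miR-423-3p it was 49.5%, and 36.4% to 65.5% over the alternatives. Scaling on single members, the ratio of miR-423-3p to miR-425-5p the GC description and the block on 207 miRNAs were chosen after seeing the data. Fits with a library left out assume that the lone library of its group varies like the others. The cause of these changes was not tested. The intervals rest on 2 libraries a group that may differ only technically, on TMM scaling and on the set of entries tested. Nothing beyond them can be said of steadiness here.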
